A study of Mus musculus with 6 samples.

Results

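Hepatic stellate cell genes were examined in liver RNA of 21-day-old mice breastfed with triclosan (TCS), an antimicrobial compound of consumer products, or with vehicle. The set holds 10 of the 51912 genes in the table, taken by symbol from a list of resting and activation markers. Lrat, Reln, Des, Dcn, Ecm1 and Colec11 stand for the quiescent cell, and Pdgfrb, Acta2, Tagln and Vim for the activated cell. The TCS group held 3 liver samples from C57/B6 neonates whose mothers received TCS. The sample labels give 120 ppm beside TCS breastmilk. According to the methods TCS was mixed into the chow of the mothers, and the level measured in milk was far lower. The figure in the labels equals the TCS content of the chow stated in the methods. It is therefore not read here as a level in milk. The vehicle group held 3 liver samples from C57/B6 neonates given regular breastmilk from mothers on chow with the solvent alone. Both groups were of the same age, and according to the methods each sample was pooled RNA of 3 mice, all of them male and drawn from more than 1 litter. The TCS mothers were dosed through pregnancy as well as lactation, so exposure before birth and through milk cannot be told apart. Numbers 1 to 3 name the samples as in the table and pair nothing across the groups.

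Stellate cells lie between the sinusoidal endothelium and the hepatocytes and store most of the vitamin A of the body as retinyl esters in lipid droplets. In an injured liver they lose these droplets, take on receptors for platelet-derived growth factor (PDGF), build contractile fibers and lay down collagen. The resting state is followed by genes of vitamin A storage and of the perisinusoidal matrix, and the activated state by genes of the contractile cytoskeleton and of growth factor signaling. None of the activated genes is restricted to stellate cells: Acta2 and Tagln are also made by vascular smooth muscle, Pdgfrb by pericytes and portal fibroblasts, and Vim by endothelial cells, leukocytes and fibroblasts. In RNA of whole liver, fewer cells of a type and less RNA per cell cannot be told apart.

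The promoters of Acta2 and Lrat are shown because these genes define the activated and the quiescent state. Both are RefSeq sequences of GRCm38.p6, run 5′ to 3′ on the minus strand, and reach from 250 bases before the annotated start to 50 bases after it. The Acta2 stretch is chr19:34255324-34255623 and the Lrat stretch is chr3:82903925-82904224. Capitals mark TATAA and boxes of the CArG type, the binding motif of serum response factor, with at most 1 G or C among the 6 central bases. This relaxed form was chosen after the Acta2 sequence had been read, since no box of strict consensus lay in either window.
Acta2: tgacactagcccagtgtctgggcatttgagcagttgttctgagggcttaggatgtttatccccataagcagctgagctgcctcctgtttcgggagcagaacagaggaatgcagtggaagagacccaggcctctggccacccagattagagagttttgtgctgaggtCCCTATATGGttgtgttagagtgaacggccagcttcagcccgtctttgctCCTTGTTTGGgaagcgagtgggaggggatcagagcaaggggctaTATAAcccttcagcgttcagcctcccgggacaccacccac
Lrat: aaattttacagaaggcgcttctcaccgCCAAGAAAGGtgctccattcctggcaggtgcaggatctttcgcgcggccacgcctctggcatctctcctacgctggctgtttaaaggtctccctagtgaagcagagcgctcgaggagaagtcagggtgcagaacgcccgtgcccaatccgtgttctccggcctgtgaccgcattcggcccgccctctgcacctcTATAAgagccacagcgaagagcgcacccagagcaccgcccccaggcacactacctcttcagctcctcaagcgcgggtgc
In the Acta2 window CCCTATATGG began at base -84 and CCTTGTTTGG at base -34, counted from the RefSeq start, and TATAA began at base 11. In the Lrat window CCAAGAAAGG began at base -223 and TATAA at base -29. Of 32851 mouse promoters of the same length, 9.98% held such a box on either strand and 0.822% held at least 2, while 1.63% held the strict consensus and 24.9% held TATAA on either strand. Sequences were found for 7 of the 10 genes, and the boxes were present in Acta2 and Lrat but in none of Reln, Des, Ecm1, Colec11 or Vim. A match of letters is a description and not a binding site.

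All 10 genes were detected and passed the filter of at least 1 TPM (transcripts as a length-scaled share of all transcripts) in at least 3 samples. With limma on log2(TPM + 1) and Benjamini-Hochberg adjustment over all 13325 genes tested, 0 of the 10 passed an adjusted p under 0.05, against 0.173% of all genes tested. At an unadjusted p under 0.05 Pdgfrb and Acta2 were higher with TCS, 2 of 10 against a background of 19.5%, and Dcn was lower, 1 of 10 against a background of 3.50%. The values of the groups did not overlap for the same 2 genes in the higher direction, where 25.1% of all genes did so, and for Dcn and Ecm1 in the lower direction, where 4.61% did so. These unadjusted calls moved with the scaling. After median-of-ratios scaling 0 of the 10 were higher, against 8.28% of all genes, and Dcn, Ecm1 and Reln were lower, 3 of 10 against 8.76%. Without vehicle sample 2, Pdgfrb was higher (background 15.6%) and Dcn was lower (background 3.37%), and with a skeletal muscle covariate described below 0 were higher (background 11.1%) and Dcn was lower (background 2.87%). The median log2 fold change was 0.31 over the 4 activated genes, -0.04 over the 6 quiescent genes and 0.13 over all genes tested. After median-of-ratios scaling it was 0.18 over the activated genes and -0.19 over the quiescent genes. With the muscle covariate it was 0.19 over the activated genes and -0.086 over the quiescent genes, and the distance of the activated genes above all genes was 0.07, against 0.18 without the covariate.

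Facts of the whole table bear on these numbers. The median gene was shifted upward by 0.13 on the log2 scale in TCS livers, and this shift was -0.00 after median-of-ratios scaling, so fold changes are also given relative to it. Albumin, the most abundant hepatocyte marker of the lists, measured 89900, 89700 and 87600 TPM in TCS livers, against 95700, 107000 and 103000 TPM in vehicle livers. Of the hepatocyte markers, 0 of 9 passed the test, and the median of their log2 fold changes was -0.19. Vehicle sample 2 had the lowest value of the 6 samples in 30.3% of all genes tested and in 5 of the 10 stellate cell genes, Lrat, Des, Acta2, Tagln and Vim. The number of reads behind the TPM values is unknown.

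**Figure D1:**
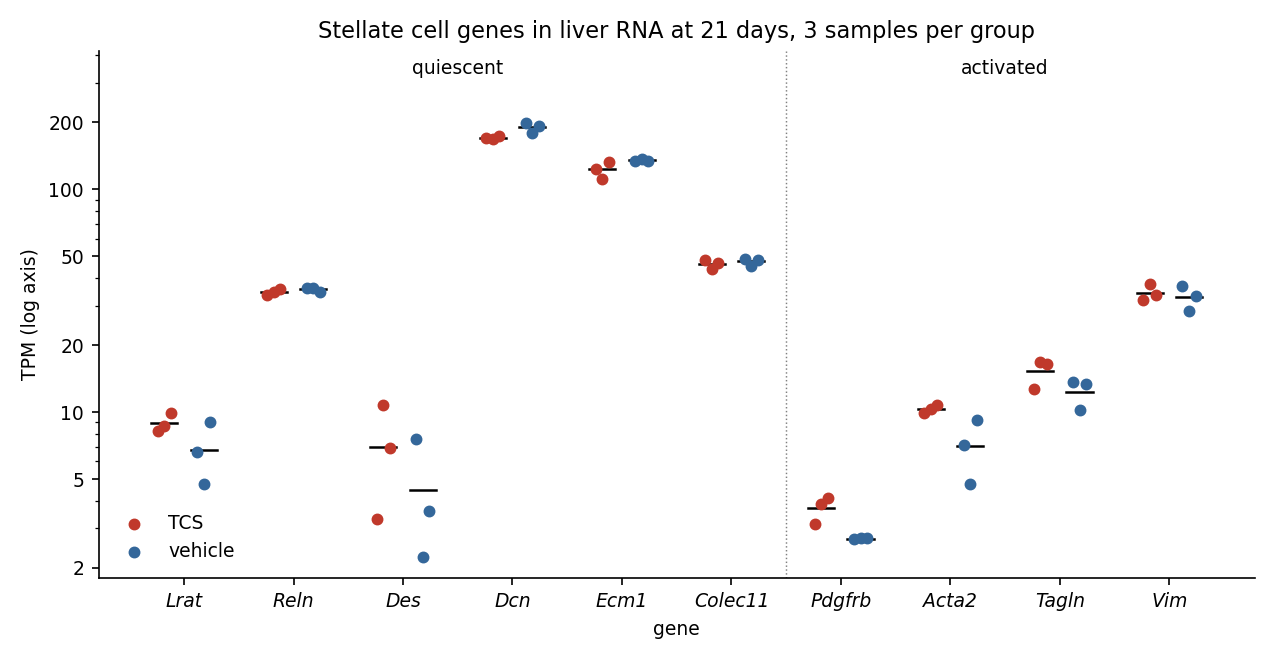
TPM of each stellate cell gene on a log axis, with 1 point per sample, TCS in red and vehicle in blue, and a bar at the mean of each group (n = 3). The quiescent genes Dcn and Ecm1 lie above 100 TPM in every sample and slightly lower with TCS, while Pdgfrb and Acta2, 3.71 and 10.3 TPM on average with TCS, lie above all vehicle samples.

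Levels of the 10 genes spanned a wide range, and TPM, being scaled by transcript length, allows them to be ordered. Dcn was the most abundant, with more TPM than 95.4% of the genes tested, followed by Ecm1, Colec11, Reln, Vim, Tagln, Acta2, Lrat, Des and Pdgfrb, the last with more TPM than 23.6%. Reln and Vim did not differ in level beyond their spread, at 34.6 ± 1.00 and 34.4 ± 3.01 TPM in TCS livers and 35.7 ± 0.866 and 32.8 ± 4.11 TPM in vehicle livers (SD, n = 3). In vehicle livers the same held for Acta2, Lrat and Des, whose ranges overlapped. Their ranges overlapped in TCS livers as well, with Acta2 at 9.86 to 10.8 TPM and Lrat at 8.21 to 9.89 TPM. Within samples, Acta2 lay above Lrat in all but vehicle sample 2, where they measured 4.73 and 4.74 TPM. The quiescent genes of high level were also the steadiest. The within-group coefficient of variation was 2.67% for Reln, 3.77% for Dcn, 4.35% for Colec11 and 5.85% for Ecm1, against a median of 12.1% over all genes tested, whereas it was 18.7% for Acta2, 20.7% for Lrat and 57.5% for Des.

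Among the quiescent genes, the 4 of high level were close to or below their vehicle levels and the 2 of low level, Lrat and Des, had higher means with TCS and a wide spread. Lrat (chromosome 3, 82892579 to 82903973, minus strand, GRCm38) encodes lecithin retinol acyltransferase, which esterifies retinol for storage and is the defining enzyme of the vitamin A droplet. Lrat measured 8.21, 8.65 and 9.89 TPM in TCS livers, against 6.60, 4.74 and 8.99 TPM in vehicle livers. The groups overlapped because vehicle sample 3 lay above 2 of the TCS samples, and the lowest value of all was that of vehicle sample 2. The log2 fold change of Lrat was 0.38 (SE 0.20, 95% confidence interval -0.11 to 0.87) with an adjusted p of 0.297 from limma, or 0.25 relative to the median gene. It was 0.18 without vehicle sample 2, 0.58 without vehicle sample 3 and 0.22 with the muscle covariate.

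Reln (chromosome 5, 21884454 to 22344702, minus strand) encodes reelin, a secreted glycoprotein best known from neuronal migration and made in the liver by stellate cells. Reln measured 33.6, 34.5 and 35.6 TPM in TCS livers, against 36.2, 36.2 and 34.7 TPM in vehicle livers. The highest and the lowest of these values differed only 1.08-fold, and the groups overlapped. The log2 fold change was -0.05 (95% confidence interval -0.20 to 0.11, adjusted p 0.682), or -0.18 relative to the median gene, and -0.19 after median-of-ratios scaling. Colec11 (chromosome 12, 28594173 to 28623377, minus strand), a collectin that recognizes sugars on microbes and activates the lectin pathway of complement, was as steady. It measured 48.4, 44.1 and 46.9 TPM in TCS livers, against 48.9, 45.4 and 48.4 TPM in vehicle livers, a log2 fold change of -0.03 (95% confidence interval -0.20 to 0.13, adjusted p 0.787).

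Dcn and Ecm1 were the 2 genes whose TCS samples all lay below the vehicle samples. Dcn (chromosome 10, 97479609 to 97518143, plus strand) encodes decorin, a small proteoglycan that binds collagen fibrils and sequesters TGF-beta, and it is also made by portal fibroblasts. Dcn measured 170, 168 and 173 TPM in TCS livers, against 198, 180 and 193 TPM in vehicle livers, a log2 fold change of -0.16 (SE 0.06, 95% confidence interval -0.31 to -0.01). Its unadjusted p was 0.0401 and its adjusted p was 0.200, so the difference did not pass the test, and relative to the median gene it came to -0.29. Ecm1 (chromosome 3, 95734147 to 95739569, minus strand) encodes extracellular matrix protein 1, a secreted protein known in mouse liver for keeping latent TGF-beta inactive. Ecm1 measured 124, 112 and 133 TPM in TCS livers, against 134, 137 and 134 TPM in vehicle livers. The groups were separated by a single TPM, between TCS sample 3 and vehicle samples 1 and 3, and the log2 fold change was -0.14 (95% confidence interval -0.32 to 0.05, adjusted p 0.322). It was -0.071 without TCS sample 2 and -0.29 after median-of-ratios scaling.

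Des (chromosome 1, 75360329 to 75368579, plus strand) encodes desmin, the intermediate filament of muscle that also labels rodent stellate cells. It varied most of all, with 3.30, 10.8 and 6.87 TPM in TCS livers, against 7.55, 2.23 and 3.60 TPM in vehicle livers. High and low samples were present in both groups, and the highest value was 4.84-fold the lowest. The log2 fold change of 0.55 therefore had a confidence interval of -0.58 to 1.68 and an adjusted p of 0.499, and changes of either sign lay within it. It was 0.21 without TCS sample 2, 0.23 without vehicle sample 2, 0.93 without vehicle sample 1 and 0.94 without TCS sample 1.

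**Figure D2:**
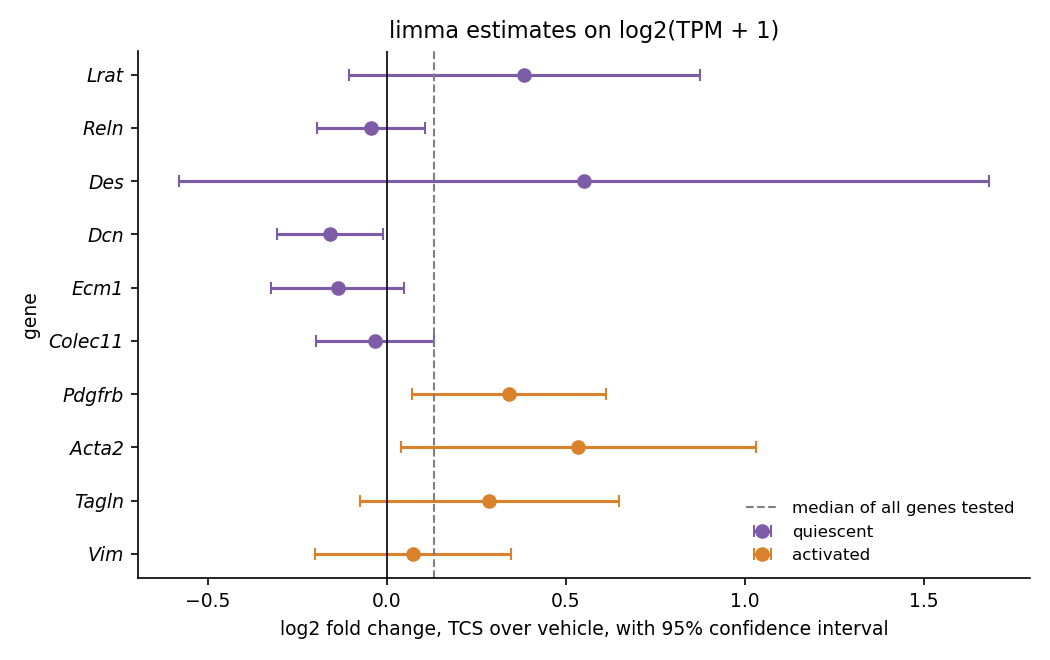
Log2 fold change of TCS over vehicle from limma on log2(TPM + 1) for each gene, with its 95% confidence interval, quiescent genes in purple and activated genes in orange. The dashed line is the median of all genes tested, 0.13, which lies inside the intervals of Lrat, Des, Colec11, Pdgfrb, Acta2, Tagln and Vim and above the intervals of Reln, Ecm1 and Dcn, the last -0.31 to -0.01.

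Of the activated genes, all 4 had a higher mean TPM with TCS, Vim only without rescaling since its log2 fold change was -0.076 after median-of-ratios scaling, and for Pdgfrb and Acta2 every TCS sample exceeded every vehicle sample. Pdgfrb (chromosome 18, 61045150 to 61085061, plus strand) encodes the beta receptor for PDGF, the main mitogen of stellate cells, and its receptor level rises early in activation. Pdgfrb measured 3.15, 3.85 and 4.13 TPM in TCS livers, against 2.69, 2.71 and 2.71 TPM in vehicle livers. The vehicle samples were almost identical, so that nearly all of the spread lay among the TCS samples. The ratio of the means was 1.37 (3.71 ± 0.505 against 2.70 ± 0.0115 TPM, SD, n = 3), and the log2 fold change was 0.34 (SE 0.11, 95% confidence interval 0.07 to 0.61). The unadjusted p was 0.0214 and the adjusted p was 0.158, which did not pass the threshold, and relative to the median gene the change was 0.21.

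Acta2 (chromosome 19, 34241090 to 34255590, minus strand), whose promoter is printed above, encodes alpha smooth muscle actin, the classical marker of the myofibroblast. Acta2 measured 9.86, 10.3 and 10.8 TPM in TCS livers, against 7.13, 4.73 and 9.22 TPM in vehicle livers. Here the TCS samples were tightly grouped and the spread lay among the vehicle samples, with vehicle sample 3 close beneath the lowest TCS sample. The ratio of the means was 1.47 (10.3 ± 0.470 against 7.03 ± 2.25 TPM), with a log2 fold change of 0.53 (SE 0.21, 95% confidence interval 0.04 to 1.03, unadjusted p 0.0379, adjusted p 0.196). Relative to the median gene the log2 change was 0.40. Without vehicle sample 2 the log2 fold change of Acta2 was 0.31, with an adjusted p of 0.269, in a range of 0.0896 to 0.516 over all alternatives. The order of the samples in Acta2, with vehicle samples 2, 1 and 3 below all TCS samples in that sequence, was shared by 7.59% of all genes tested.

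Tagln and Vim had overlapping groups. Tagln (chromosome 9, 45929619 to 45936058, minus strand) encodes transgelin, an actin-binding protein of smooth muscle and myofibroblasts. It measured 12.7, 16.8 and 16.4 TPM in TCS livers, against 13.6, 10.2 and 13.3 TPM in vehicle livers, where TCS sample 1 fell among the vehicle samples. The log2 fold change was 0.29 (95% confidence interval -0.08 to 0.65, adjusted p 0.293). It was 0.16 without vehicle sample 2 and 0.14 after median-of-ratios scaling. Of the exon bases of Tagln, 62.4% are also covered by the antisense gene Gm48529, which reached 1.00 TPM in TCS livers and 1.23 TPM in vehicle livers. The methods call the reads strand-specific while the kit in the labels is a standard one, so the assignment of reads between this pair is uncertain. Vim (chromosome 2, 13573927 to 13582826, plus strand) encodes vimentin, the intermediate filament of mesenchymal cells. Vim measured 32.0, 37.8 and 33.5 TPM in TCS livers, against 36.7, 28.5 and 33.1 TPM in vehicle livers, and its log2 fold change of 0.07 (95% confidence interval -0.20 to 0.35, adjusted p 0.717) was below that of the median gene.

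Transcripts of skeletal muscle differed widely between the samples and moved with some of these genes. A list of 14 skeletal muscle genes, written after the data had been seen, summed to 128, 645 and 501 TPM in TCS livers, against 437, 12.4 and 69.9 TPM in vehicle livers. Its most abundant gene, Acta1, the skeletal alpha actin, reached 138 TPM in TCS sample 2, against 1.87 TPM in vehicle sample 2. The 3 samples with the most muscle RNA, TCS samples 2 and 3 and vehicle sample 1, were also the 3 highest in Des, Tagln and Vim, and vehicle sample 2 was the lowest in each. Vehicle sample 2 was also the lowest in Acta2 and Lrat, while their 3 highest samples, like those of Pdgfrb and Dcn, were not these 3. When the muscle sum entered the limma fit as a covariate, an alternative added after seeing the data, the log2 fold changes were -0.20 for Des, 0.08 for Tagln and -0.09 for Vim. Under the same covariate they were 0.35 for Acta2, 0.22 for Lrat, 0.29 for Pdgfrb and -0.21 for Dcn. The part of muscle RNA in the values of Des, Tagln and Vim was not tested beyond this fit.

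**Figure D3:**
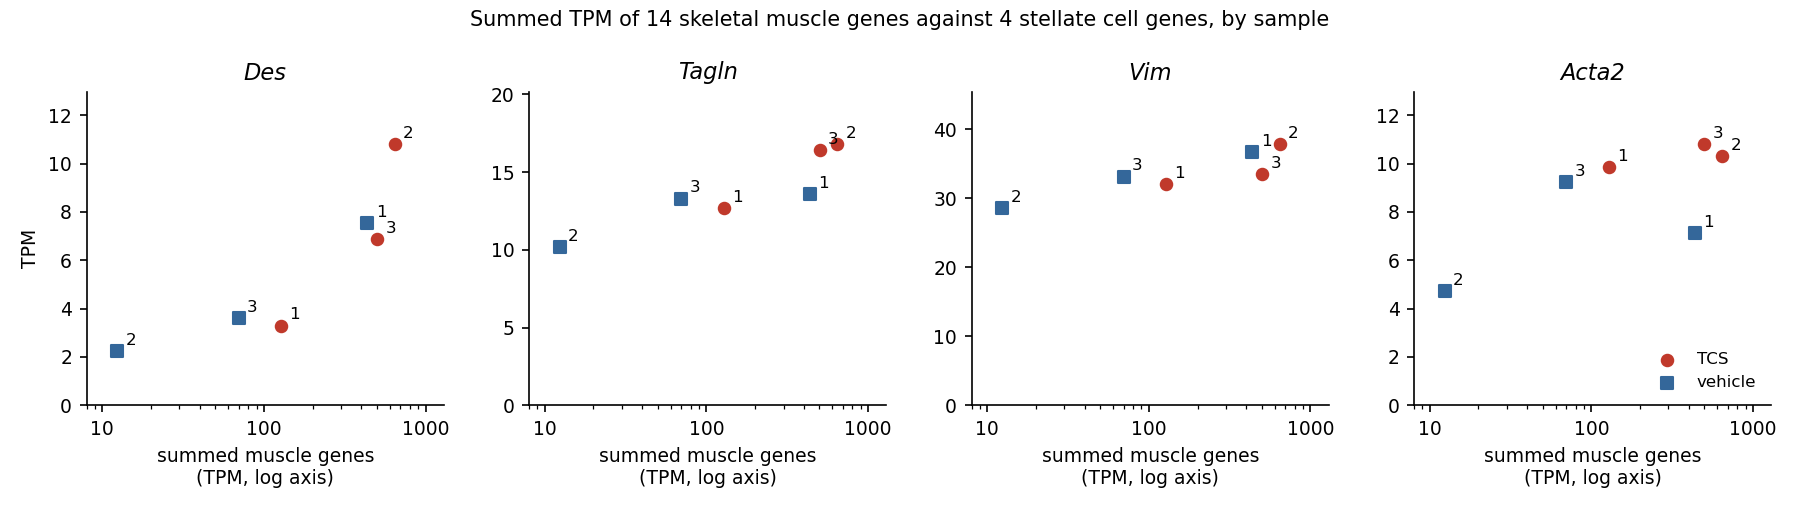
TPM of Des, Tagln, Vim and Acta2 on a linear axis against the summed TPM of 14 skeletal muscle genes on a log axis, 1 point per sample, numbered as in the table, with TCS as red circles and vehicle as blue squares. The muscle sum runs between 12.4 and 645 TPM; vehicle sample 1, at 437 TPM, is high in Des, Tagln and Vim but below vehicle sample 3 in Acta2.

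Ratios between genes of the same sample do not depend on the scaling of the libraries, and they set the activated genes directly against the quiescent matrix gene Dcn. Acta2 per 100 TPM of Dcn was 5.80, 6.13 and 6.24 in TCS livers, against 3.60, 2.63 and 4.78 in vehicle livers. Pdgfrb per 100 TPM of Dcn was 1.85, 2.29 and 2.39 in TCS livers, against 1.36, 1.51 and 1.40 in vehicle livers. In both ratios every TCS sample was above every vehicle sample, and the same held for Tagln, at 7.47 or more in TCS livers against 6.89 or less in vehicle livers, and for Vim, at 18.8 to 22.5 in TCS livers against 15.8 to 18.5 in vehicle livers. The quiescent gene Lrat behaved like the activated ones, with 4.83, 5.15 and 5.72 per 100 TPM of Dcn in TCS livers, against 3.33, 2.63 and 4.66 in vehicle livers. Because Dcn itself was lower with TCS, it raised every one of these ratios in TCS livers. Of all genes tested, 46.8% were higher without overlap when set over Dcn, so this separation is common, and the TPM of Tagln, Vim and Lrat by themselves overlapped. With the steadier Reln as denominator, where 32.6% of all genes were higher without overlap, Pdgfrb was at 9.38 to 11.6 per 100 TPM in TCS livers against 7.43 to 7.81 in vehicle livers, and Acta2 at 29.3 to 30.3 in TCS livers against 13.1 to 26.6 in vehicle livers, whereas Lrat, Tagln, Vim and Des overlapped between the groups. Acta2 per 100 TPM of Lrat was 120, 119 and 109 in TCS livers, against 108, 99.8 and 103 in vehicle livers, without overlap and with a smaller distance between the groups than Acta2 per Dcn. The nearest values were 109 in TCS sample 3 and 108 in vehicle sample 1. The share of all genes that separate when set over Lrat was not computed, so this separation cannot be weighed.

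**Figure D4:**
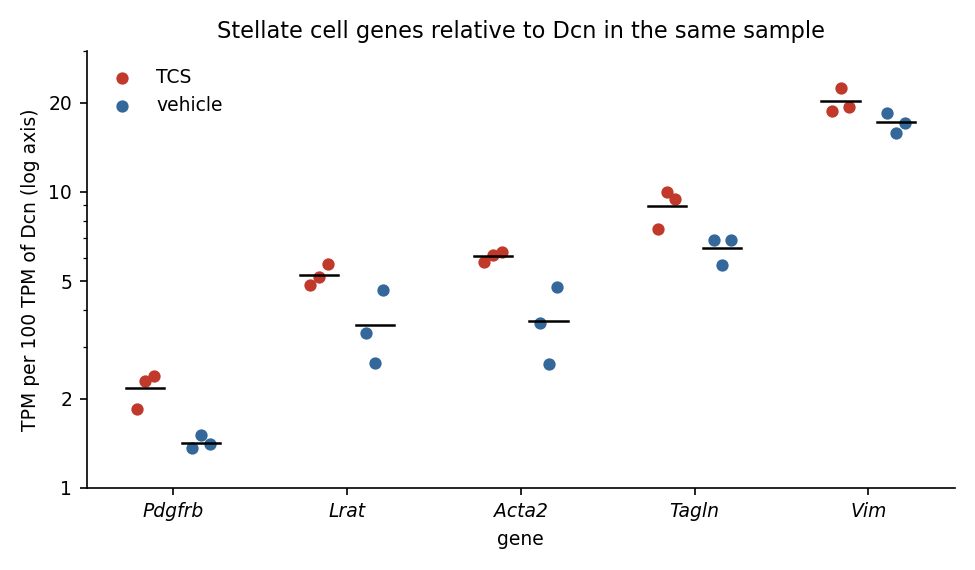
Pdgfrb, Lrat, Acta2, Tagln and Vim in TPM per 100 TPM of Dcn in the same sample, on a log axis, with 1 point per sample, TCS in red left of vehicle in blue, and a bar at the mean (n = 3). The groups do not overlap in any of the 5 ratios, as in 46.8% of all genes tested set over Dcn, with Acta2 running over 5.80 to 6.24 in TCS livers and 2.63 to 4.78 in vehicle livers.

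The genes whose pattern over the 6 samples was most like that of Acta2 were sought among 8689 genes with a mean of at least 5 TPM, by the root mean square difference of centered log2(TPM + 1). They were Nfyb at 0.04, Recql, Gsap and Igfals at 0.06 each and Gimd1 at 0.07, where the values of Acta2 itself had a root mean square of 0.36. Nfyb, a subunit of the CCAAT-binding factor, measured 28.3, 28.9 and 28.6 TPM in TCS livers, against 19.4, 14.2 and 26.4 TPM in vehicle livers. For Lrat they were Igfals at 0.05 and Gsap, Eipr1, Dock6 and Hnrnpa3 at 0.06 each, so that Igfals and Gsap stood in both lists. Igfals, the acid-labile subunit that carries insulin-like growth factors in plasma, is made by hepatocytes. It measured 59.5, 62.7 and 72.3 TPM in TCS livers, against 45.7, 34.5 and 61.0 TPM in vehicle livers.

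Other genes known for the resting stellate cell were counted in a list of 20, of which 19 were tested and 0 passed the threshold. At an unadjusted p under 0.05, 3 of 19 were higher, against 19.5% of all genes, and 2 of 19 were lower with TCS, against 3.50%. After median-of-ratios scaling 1 was higher, against 8.28%, and 5 were lower, against 8.76%. The median log2 fold change was -0.00, or -0.13 relative to all genes. Of the 19 genes 9 were above 0 and 10 below 0, and after median-of-ratios scaling 4 were above 0 and 15 below 0. Cxcl12, a chemokine that holds leukocytes and progenitors in place, measured 161, 154 and 161 TPM in TCS livers, against 122, 117 and 136 TPM in vehicle livers (log2 fold change 0.34, adjusted p 0.0975). Vipr1, a receptor for vasoactive intestinal peptide, averaged 11.2 ± 1.15 TPM in TCS livers and 14.3 ± 0.954 TPM in vehicle livers (log2 fold change -0.33, adjusted p 0.142). Gfap, which marks stellate cells in rats and less so in mice, stayed at or under 0.195 TPM in TCS livers and 0.233 TPM in vehicle livers and was not tested. Chosen after their values were seen, Pparg, the nuclear receptor tied to quiescence, had a log2 fold change of 0.32 without overlap, and Ednrb, the endothelin B receptor, had one of -0.40 without overlap. In the list 2 of 19 genes were higher without overlap, against 25.1% of all genes, and 3 were lower, against 4.61%.

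The matrix genes of activated stellate cells had the median of all genes as a list, and several collagens were separated by group. Of 22 genes 19 were tested and 0 passed the threshold, and the median log2 fold change was 0.13. At an unadjusted p under 0.05, 6 of 19 were higher, against 19.5% of all genes, and 0 were lower, against 3.50%. After median-of-ratios scaling 5 were higher, against 8.28%, and 1 was lower, against 8.76%. Under that scaling 10 were above 0 and 9 below 0, where 18 were above 0 and 1 below 0 without it. Spon2, a secreted matrix protein of the spondin family, measured 5.44, 10.5 and 10.6 TPM in TCS livers, against 2.39, 2.48 and 3.61 TPM in vehicle livers (log2 fold change 1.33, adjusted p 0.0882). Col3a1, a fibrillar collagen chain, measured 82.2, 98.0 and 96.6 TPM in TCS livers, against 74.7, 68.2 and 74.5 TPM in vehicle livers (log2 fold change 0.34, adjusted p 0.117). Both had every TCS sample above every vehicle sample, as did 8 of the 19 genes, against 25.1% of all genes. Fibronectin, Fn1, was lower in every TCS sample, at 474 ± 36.7 TPM in TCS livers and 547 ± 63.3 TPM in vehicle livers, and hepatocytes also make it. It was the only 1 of the 19 genes lower without overlap, against 4.61% of all genes. Sparc was at 205 ± 14.1 TPM in TCS livers and 199 ± 3.21 TPM in vehicle livers. Col1a1, Col12a1 and Col15a1 are shown as induced in the study's own display of these samples, so their part in the count is not independent evidence. The paper's legend to its fibrosis genes states an adjusted p under 0.05 for all genes used, whereas 0 of this list passed here. It also reports more Sirius red staining in livers of TCS-exposed neonates.

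Ligands, receptors and targets of PDGF and TGF-beta signaling gave a median log2 fold change of 0.14, with 19 of 22 genes tested and 0 past the threshold. At an unadjusted p under 0.05, 3 of 19 were higher with TCS, against 19.5% of all genes, and 1 was lower, against 3.50%, so that the list lay near the background in its counts as in its median. After median-of-ratios scaling 1 was higher, against 8.28%, and 2 were lower, against 8.76%. Of a related pair of matricellular targets, 1 was higher and 1 lower in value. Ccn1 measured 4.85, 5.31 and 4.29 TPM in TCS livers, against 2.89, 2.54 and 2.82 TPM in vehicle livers (log2 fold change 0.63, adjusted p 0.0814). Ccn2, the connective tissue growth factor, measured 6.75, 8.04 and 6.55 TPM in TCS livers, against 9.88, 11.0 and 9.88 TPM in vehicle livers (log2 fold change -0.48, adjusted p 0.0973). Neither gene had overlapping groups. In the list 3 of 19 genes were higher without overlap, against 25.1% of all genes, and 2 were lower, against 4.61%. Among the ligands, Pdgfb, Tgfb2 and Tgfb3 stayed under 1 TPM and were not tested, and Tgfb1 was at 6.87 ± 0.833 TPM in TCS livers and 5.81 ± 0.953 TPM in vehicle livers. Pdgfra, the alpha receptor beside Pdgfrb, was at 2.35 ± 0.127 TPM in TCS livers and 2.46 ± 0.147 TPM in vehicle livers. Eng, a TGF-beta co-receptor, and Smad4, the common mediator, had log2 fold changes of 0.16 and -0.01.

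Contractile and smooth muscle genes, the list nearest to Acta2 and Tagln in function, had a median log2 fold change of 0.34, with 13 of 17 tested and 0 past the threshold. At an unadjusted p under 0.05, 2 of 13 were higher, a share below the 19.5% of all genes, and 0 were lower, against 3.50%. After median-of-ratios scaling 2 of 13 were still higher, a share above the 8.28% of all genes, and 1 was lower, against 8.76%. Cald1, caldesmon, which regulates actin and myosin, measured 126, 141 and 146 TPM in TCS livers, against 95.5, 98.1 and 116 TPM in vehicle livers (log2 fold change 0.41, adjusted p 0.107). Smtn, smoothelin, measured 6.95, 8.47 and 9.09 TPM in TCS livers, against 5.62, 5.50 and 6.22 TPM in vehicle livers (log2 fold change 0.43, adjusted p 0.121). In both, all TCS samples were above all vehicle samples, as in 3 of the 13 genes, against 25.1% of all genes. With the muscle covariate their log2 fold changes were 0.40 for Cald1 and 0.36 for Smtn. Tpm1, a tropomyosin shared with striated muscle, measured 67.5, 120 and 94.3 TPM in TCS livers, against 86.6, 42.5 and 57.2 TPM in vehicle livers, an order that followed the muscle sum. With that covariate the median of the list was 0.11, and without vehicle sample 2 it was 0.16. Relative to all genes these medians were -0.0085 and 0.040, against 0.21 in the main fit. The part of muscle RNA in the list was otherwise not tested. Myh11, the smooth muscle myosin and the marker that sets vascular smooth muscle apart, was chosen after its values were seen. It measured 2.41, 2.50 and 2.52 TPM in TCS livers, against 1.72, 1.15 and 2.21 TPM in vehicle livers, which is the sample order of Acta2.

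Genes of vitamin A storage and mobilization, to which Lrat belongs, had 16 of 21 genes tested and 0 past the threshold, and a median log2 fold change of 0.31. At an unadjusted p under 0.05, 5 of 16 were higher, against 19.5% of all genes, and 3 were lower, against 3.50%. After median-of-ratios scaling 4 were higher, against 8.28%, and 3 were lower, against 8.76%. Without vehicle sample 2 the median log2 fold change was 0.13, and with the muscle covariate it was 0.14. Relative to all genes these medians were 0.0032 and 0.021, against 0.18 in the main fit. Aldh1a1, a retinal dehydrogenase abundant in hepatocytes, measured 467, 422 and 445 TPM in TCS livers, against 112, 275 and 116 TPM in vehicle livers (log2 fold change 1.53, adjusted p 0.0981). Cyp26b1, which degrades retinoic acid and is found in stellate cells, measured 1.02, 1.49 and 1.48 TPM in TCS livers, against 2.44, 2.89 and 3.10 TPM in vehicle livers (log2 fold change -0.71, adjusted p 0.0876). Neither overlapped between the groups. In the list 6 of 16 genes were higher without overlap, against 25.1% of all genes, and 3 were lower, against 4.61%. The related gene Cyp26a1, named after its values were seen, was under the filter and was not tested. Its direction was opposite to that of Cyp26b1, at 0.899 to 1.88 TPM in TCS livers against 0.264 to 0.427 TPM in vehicle livers. These groups did not overlap, where 25.1% of all genes tested were higher without overlap. The paper also names Cyp26a1 among the genes of retinol metabolism increased by TCS. Rbp4, the plasma carrier of retinol made by hepatocytes, was lower in every TCS sample, with a log2 fold change of -0.36 (adjusted p 0.144). Most of the abundant genes of this list are hepatocyte genes, so the list is not a measure of stellate cells alone.

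**Figure D5:**
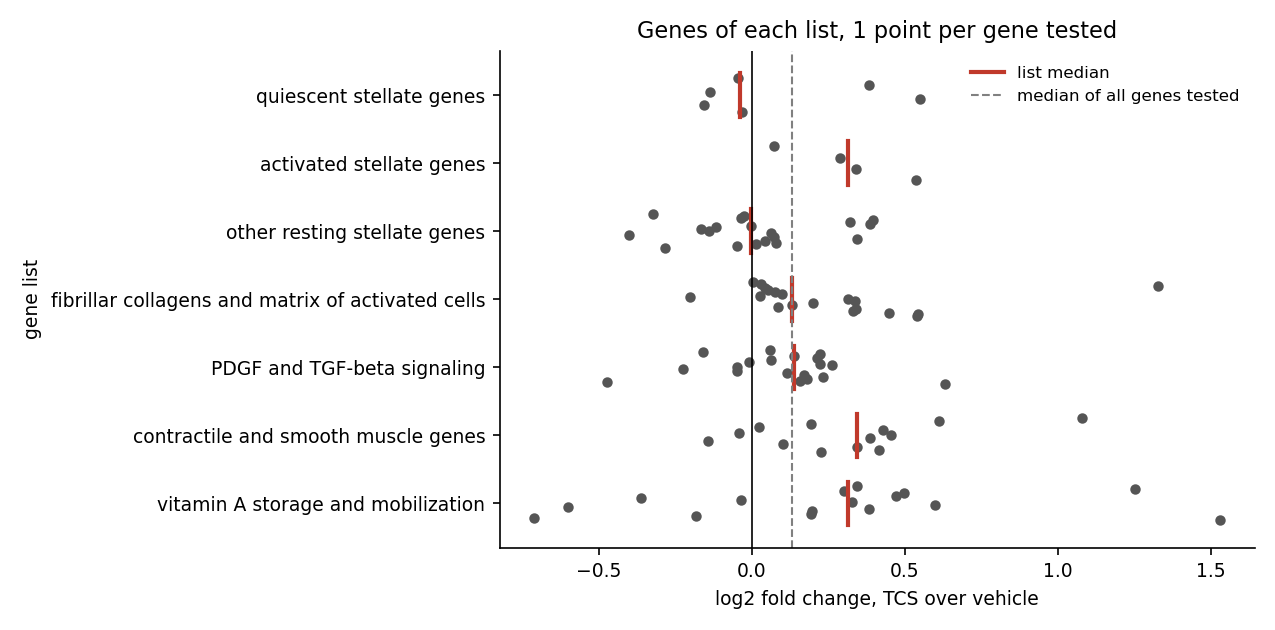
Log2 fold change of TCS over vehicle for each gene tested in 7 lists, 1 point per gene, with a red bar at the median of the list and a dashed line at the median of all genes tested, 0.13. The activated stellate genes have a median of 0.31 and the contractile genes 0.34, the quiescent genes -0.04, and the matrix list 0.13.

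Markers of the other cells that share genes with stellate cells were read beside these results. Of the portal fibroblast markers 10 of 12 were tested, with 0 past the threshold and 0 with non-overlapping groups. Without overlap, 25.1% of all genes tested were higher and 4.61% were lower. The portal fibroblast markers had a summed level of 54.1 to 64.7 TPM in TCS livers and 47.1 to 55.8 TPM in vehicle livers. Eln, the most abundant of the list, was at 18.0 ± 3.01 TPM in TCS livers and 15.8 ± 2.61 TPM in vehicle livers. Gli1, named after its values were seen, stayed at or under 0.204 TPM and was not tested. Of the pericyte and vascular smooth muscle markers 4 of 7 were tested, again with 0 past the threshold, and they summed to 36.9 to 40.1 TPM in TCS livers and 30.3 to 37.3 TPM in vehicle livers. Of these, Mcam, an adhesion molecule of vessel walls, had the smallest p and measured 4.61, 6.95 and 7.22 TPM in TCS livers, against 4.19, 4.51 and 4.76 TPM in vehicle livers (log2 fold change 0.38, adjusted p 0.222). Rgs5, the most abundant of the list, was at 19.6 ± 1.51 TPM in TCS livers and 18.3 ± 2.69 TPM in vehicle livers. Notch3, Higd1b and Cspg4, named after their values were seen, were under the filter and were not tested. Notch3 was at 0.593, 0.618 and 0.764 TPM in TCS livers against 0.508, 0.402 and 0.438 TPM in vehicle livers. Higd1b was at 0.148 to 0.281 TPM in TCS livers against at most 0.0662 TPM in vehicle livers. Neither of these overlapped between the groups, where 25.1% of all genes tested were higher without overlap. Cspg4 overlapped, at 0.139 to 0.172 TPM in TCS livers and 0.0763 to 0.152 TPM in vehicle livers. Kcnj8, which was tested, also overlapped and had a log2 fold change of -0.08. The mesothelial markers had 4 of 6 tested and 0 past the threshold, with Gpm6a at 1.78 ± 0.275 TPM in TCS livers and 0.892 ± 0.151 TPM in vehicle livers (log2 fold change 0.55, adjusted p 0.109). Msln, Upk3b and Krt19 overlapped between the groups, with log2 fold changes of 0.22, 0.30 and 0.14. The mean of Krt19 was 6.85 TPM in TCS livers and 6.97 TPM in vehicle livers. The sinusoidal endothelial markers, which also carry Vim, had 0 of 10 past the threshold and a median log2 fold change of -0.03, and their sum was 250 to 269 TPM in TCS livers and 254 to 266 TPM in vehicle livers. Kupffer cell markers had 0 of 9, lymphocyte and neutrophil markers 0 of 5, cholangiocyte markers 0 of 4 and erythroid markers 0 of 7 past the threshold. Only 0.173% of all genes tested passed it, so 0 in lists of this size says little about any of these cells. The part of any of these cells in the values of Acta2, Pdgfrb, Tagln and Vim was not tested.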

How the data were processed

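Liver RNA was sequenced in 3 TCS and 3 vehicle samples, each pooled from 3 mice. Per the submitters' processing notes the authors used bcl2fastq 2.17.1.14, STAR 2.2.0c, HOMER and the mm10 genome. The methods describe FPKM over RefSeq exons, while the authors deposited TPM under Ensembl identifiers, rounded to 3 significant digits, and the step that made the TPM is not given in the sources used here. Without a known depth, counting error cannot be stated, and the p-values measure only the spread between these samples. Column names give the group and a number that could not be tied to a sample label. The authors' own sheet of log2 fold changes and adjusted p-values was not used.

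The test was run in R 4.3.3 with limma 3.58.1, on log2(TPM + 1) of every gene that reached 1 TPM in 3 or more samples, as a trended moderated test with Benjamini-Hochberg adjustment over all genes tested and a threshold of 0.05. A pseudocount of 1 understates changes of low genes. The script was tested on simulated data. Alternatives were a pseudocount of 0.1, no filter or a filter of 5 TPM, median-of-ratios scaling, quantile normalization, no trend, array weights, each sample left out in turn and, added after seeing the data, a skeletal muscle covariate. The genes, the lists and the tests were chosen with earlier results of these data known, so no list gives independent support. All 10 stellate genes were named. From each other list the rule was to name the genes past the threshold. Where 0 passed, it was the 2 with the smallest p and the 2 with the highest mean. Others were named outside this rule with their values known, and not all are marked where they stand. They include Pparg, Ednrb, Myh11, Gfap, Tgfb1, Pdgfra, Gli1, Notch3, Higd1b, Cspg4, Kcnj8 and Cyp26a1. A gene under this rule is not reported here. Gene positions are of GRCm38, GENCODE M21, and promoters are from RefSeq, GRCm38.p6.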

Additional observations from a re-analysis of the deposited data

How the results depend on the processing

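Under the 14 alternatives, 0 of the 10 stellate cell genes passed an adjusted p under 0.05 in any. Of 139 values of single genes under these alternatives, 133 kept their sign and their side of the threshold and 6 changed sign. Vim changed sign with median-of-ratios scaling (-0.076), quantile normalization (-0.059) and the skeletal muscle covariate (-0.086) and, with 1 sample left out, ran between -0.020 without vehicle sample 2 and 0.16 without vehicle sample 1. Des changed sign with the skeletal muscle covariate (-0.20), and Colec11 ran between -0.066 without vehicle sample 2 and 0.0030 without TCS sample 2; none of these was a called gene, and the cause was not tested. The log2 fold change of Acta2 ran between 0.31 and 0.73 (adjusted p 0.0896 to 0.516), that of Pdgfrb between 0.20 and 0.43 (adjusted p 0.0530 to 0.417) and that of Dcn between -0.31 and -0.13 (adjusted p 0.0605 to 0.414). Pdgfrb did not pass the filter of 5 TPM and has no value there. Of all genes tested, 23 passed the threshold; this count was 0 without a filter, where 3837 had an unadjusted p under 0.05, 59 with the filter of 5 TPM, 1240 with array weights and 0 with the skeletal muscle covariate, where 1864 had an unadjusted p under 0.05. Leaving out 1 sample gave 0 to 29 genes, with 4 without vehicle sample 1, 4 without TCS sample 1, 1 without TCS sample 2 and 0 without TCS sample 3. The cause of these differences was not tested. With 3 samples a group and no counts, small differences of low genes such as Pdgfrb and Des cannot be resolved.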
